A study of Rattus norvegicus with 12 samples.

Results

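The contrast described here asks whether cutting the recurrent laryngeal nerve changed RNA levels by the same amount in 2 laryngeal muscle specimens of the rat. For each gene it is the injury effect in the laryngeal adductor complex (AC) minus the injury effect in the abducting posterior cricoarytenoid muscle (PCA), over all 12 arrays and all 14324 genes that could be named and tested. An injury effect is the mean log2 level of the injured arrays minus that of the control arrays of the same muscle. A positive value therefore means that the level moved further upward, or fell less, in AC than in PCA. The same number can be written as the gap between the muscles (AC minus PCA) after injury minus the gap in the controls, so each gene was also placed by which of those gaps was the larger.

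All animals were male rats of strain F344. In the injury groups the nerve was transected on 1 side and 1 cm of it was taken out. In the control groups the surgical approach was identical but the nerve was left intact, so the controls also carry the surgery and the anaesthesia. Tissue was taken after 1 week. Crossing the 2 muscles with the 2 kinds of surgery gave 4 groups of 3 arrays, called AC control, AC injury, PCA control and PCA injury. Each surgery group held 10 animals per the labels, which do not say which animal gave which array, whether specimens were pooled, or whether the PCA and AC arrays of 1 surgery group came from the same animals. The p-values thus measure the spread between the arrays of a group, which need not be that between animals. That spread included differences in thyroid and squamous epithelium genes within a group, given below. With 3 arrays per group the precision of every value is limited.

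The larynx is moved by small striated muscles that the recurrent laryngeal nerve supplies. The PCA opens the glottis and the adductors close it. A muscle that has lost its nerve switches on acetylcholine receptor subunits and embryonic sarcomere genes and loses contractile and mitochondrial transcripts. It also takes in macrophages, and resident cells next to its fibres may divide. Laryngeal muscles lie against cartilage, joint, mucosa and fat, so a dissected specimen can carry RNA of those tissues too. In such bulk RNA, fewer cells of a type and less RNA per cell cannot be told apart.

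Several whole-array features touch the results. The arrays had medians between 7.11 and 7.17 log2 units and striated muscle markers were high in all of them, with the fast myosin Myh1 between 12.35 and 13.15. The mean of 15 squamous epithelium genes was 7.69, 9.72 and 6.70 in the 3 PCA control arrays against 10.04 to 11.34 in the other 9, so PCA control 2 stood apart within its group. The mean of 15 thyroid and parathyroid genes stood out in 3 arrays, at 9.92 (PCA control 1), 9.72 (PCA injury 2) and 8.43 (AC injury 2), against 6.36 to 7.25 elsewhere. The mean of 17 neutrophil granule and marrow genes was highest in the 3 AC control arrays. No batch was named in the labels or the file.

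The injury effects differed between the muscles for 22 genes at a limma adjusted p under 0.05, or 0.154% of the genes tested, of which 4 were positive (0.0279%) and 18 negative (0.126%). At an unadjusted p under 0.05 there were 2247 genes, or 15.7%. The negative group held interleukin-1 receptor antagonist (Il1rn), 4 cell division genes (Ccna2, Top2a, Kif23 and Nusap1) and 6 core histone genes. The positive group was the uncoupling protein of brown fat (Ucp1), slow troponin C (Tnnc1), the immunoglobulin-domain membrane protein Vsig2 and the potassium channel subunit Kcns2.

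Nearly all of these differences lay in the control arrays. The gap between the muscles was larger in the controls than after injury for 21 of the 22 genes, the exception being Vsig2. Control gaps ran from 0.32 to 3.79 log2 units in size with a median of 1.21, and injured gaps from 0.0033 to 0.70 with a median of 0.15. The control arrays of PCA and AC did not overlap for any of the 22 genes (33.7% of all genes), while the injured arrays did not overlap for 4 (6.49% of all genes). PCA control was the group farthest from the other groups for 19 genes, AC control for Upk1a and Kcns2, and PCA injury for Vsig2.

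A second contrast of the same fit was used to place the source gene by gene. In this balanced design the mean gap between the muscles over both surgeries is uncorrelated with the contrast. Its sign beside that of the contrast tells which gap is the larger. Both tests use the same arrays and the same variance estimate of each gene, so the second is not independent of how the 22 genes were chosen. That mean gap passed the test (442 of all genes, 3.09%) for 19 of the 22 genes, each time placing the larger gap in the controls. It placed the larger gap in the injured arrays for 0 genes and left 3 not told apart (Rab7b, Vsig2 and Kcns2). The mean injury effect over both muscles (3787 genes, 26.4%) was used in the same way. It placed the larger injury effect in PCA for 18 genes, in AC for 1 (Upk1a), and left Ass1, Tnnc1 and Kcns2 not told apart.

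The pattern was not peculiar to the genes past the test. Over all genes the difference had an SD of 0.41 log2 units and a median of 0.05. The AC minus PCA gap had an SD over genes of 0.42 in the controls and 0.15 after injury, and 400 genes were at least 2-fold apart in the controls against 21 after injury. By limma 1523 genes (10.6%) differed between the control muscles, 1059 of them higher in AC (7.39%) and 464 lower (3.24%). In the injured arrays 0 genes passed, and 516 (3.6%) had an unadjusted p under 0.05. The 1059 and 464 genes were chosen on the gap in the controls, with a variance pooled over all 12 arrays, and their median gap in the injured arrays was 0.06 and -0.0033, against 0.68 and -0.43 in the controls.

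Of the 386 genes with a difference of at least 1 log2 unit in either direction, 369 (95.6%) had the larger gap in the controls and 344 (89.1%) the larger injury effect in PCA. PCA control was the farthest group for 328 of them, AC control for 41, PCA injury for 16 and AC injury for 1. Over all genes these shares were 70% for the control gap and 64.8% for the PCA effect. PCA control arrays enter both of those comparisons, so the shares are not independent of each other.

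**Figure D1:**
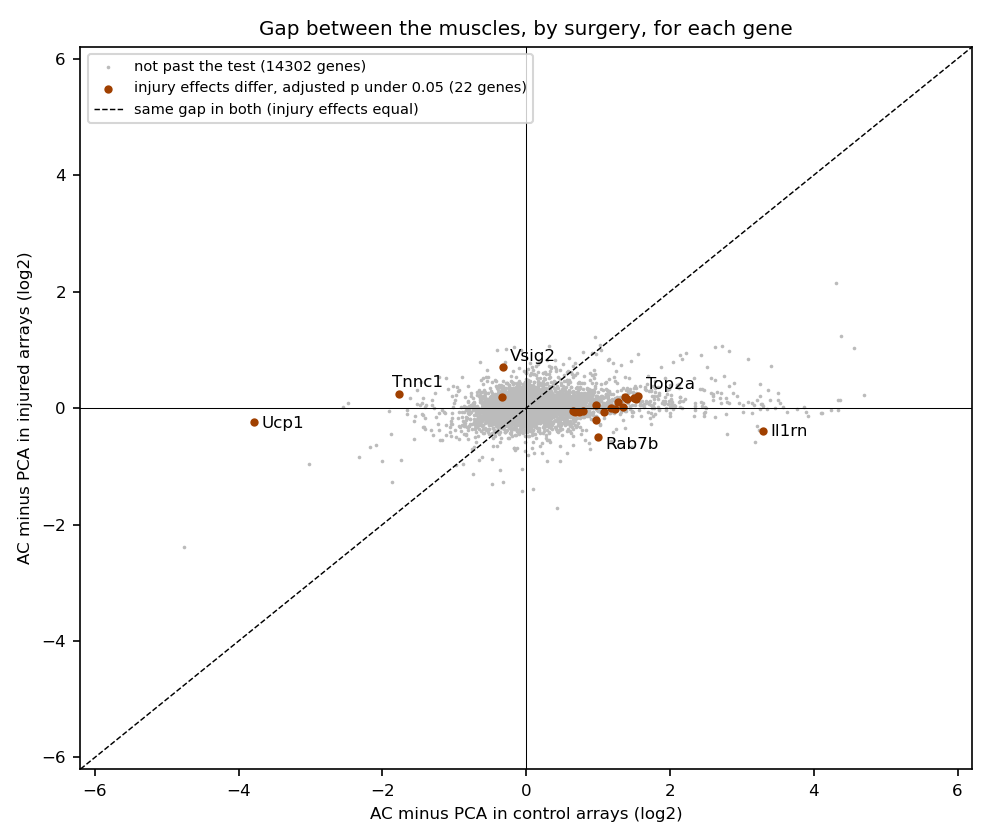
Each point is 1 of 14324 genes, with the AC minus PCA gap in log2 units in the control arrays (x) against the gap in the injured arrays (y). The 22 genes whose injury effects differed lie along the horizontal line, with control gaps of up to 3.79 and injured gaps of 0.70 or less in size, and Vsig2 is the one with the larger injured gap.

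Read from the injury side, PCA changed more widely. In PCA 3695 genes passed the test (25.8%), of which 1898 rose (13.3%) and 1797 fell (12.5%). In AC 271 passed (1.89%), of which 164 rose (1.14%) and 107 fell (0.747%). The p-values were adjusted within each comparison, so a gene needed a smaller unadjusted p to pass in AC than in PCA. Counts of genes passing, here and in the gene lists below, are therefore not on the same scale in the muscles. By size, the injury effect had an SD over genes of 0.47 in PCA and 0.29 in AC, and 675 and 149 genes changed at least 2-fold. Of the 22 genes, 21 passed in PCA and 2 in AC, and control and injury arrays did not overlap for 21 in PCA (37% of all genes) and for 5 in AC (28.4%). The 1898 genes had a median rise of 0.60 in PCA and of 0.20 in the AC arrays, where 79.7% were above 0. The 1797 genes had a median of -0.51 in PCA and -0.23 in AC, where 90% were below 0. The 164 genes that rose in AC had a median of 0.78 there and 0.81 in PCA. A gene past the test in 1 muscle and not in the other is not thereby shown to differ between them, and that was tested by the contrast alone.

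The number 22 depended strongly on single arrays. It was 406 without PCA control 2, the control array with the high squamous mean, and 6 without PCA control 1 and 1 without PCA control 3. It was 0 without AC control 1, AC control 3 or AC injury 1, 3 without AC injury 2, 5 without AC control 2, 7, 12 and 8 without PCA injury 1, 2 and 3, and 18 without AC injury 3. With the mean of the squamous genes as a covariate it was 0, with a lowest adjusted p of 0.0969. The PCA control arrays were the lowest in that mean, so this fit cannot fully separate it from the PCA control group. Each of the 22 genes kept its sign and an unadjusted p under 0.05 in each of these fits, and 21 of the 22 kept the larger gap in the controls. These genes were chosen on the same arrays, so this is no independent support.

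**Figure D2:**
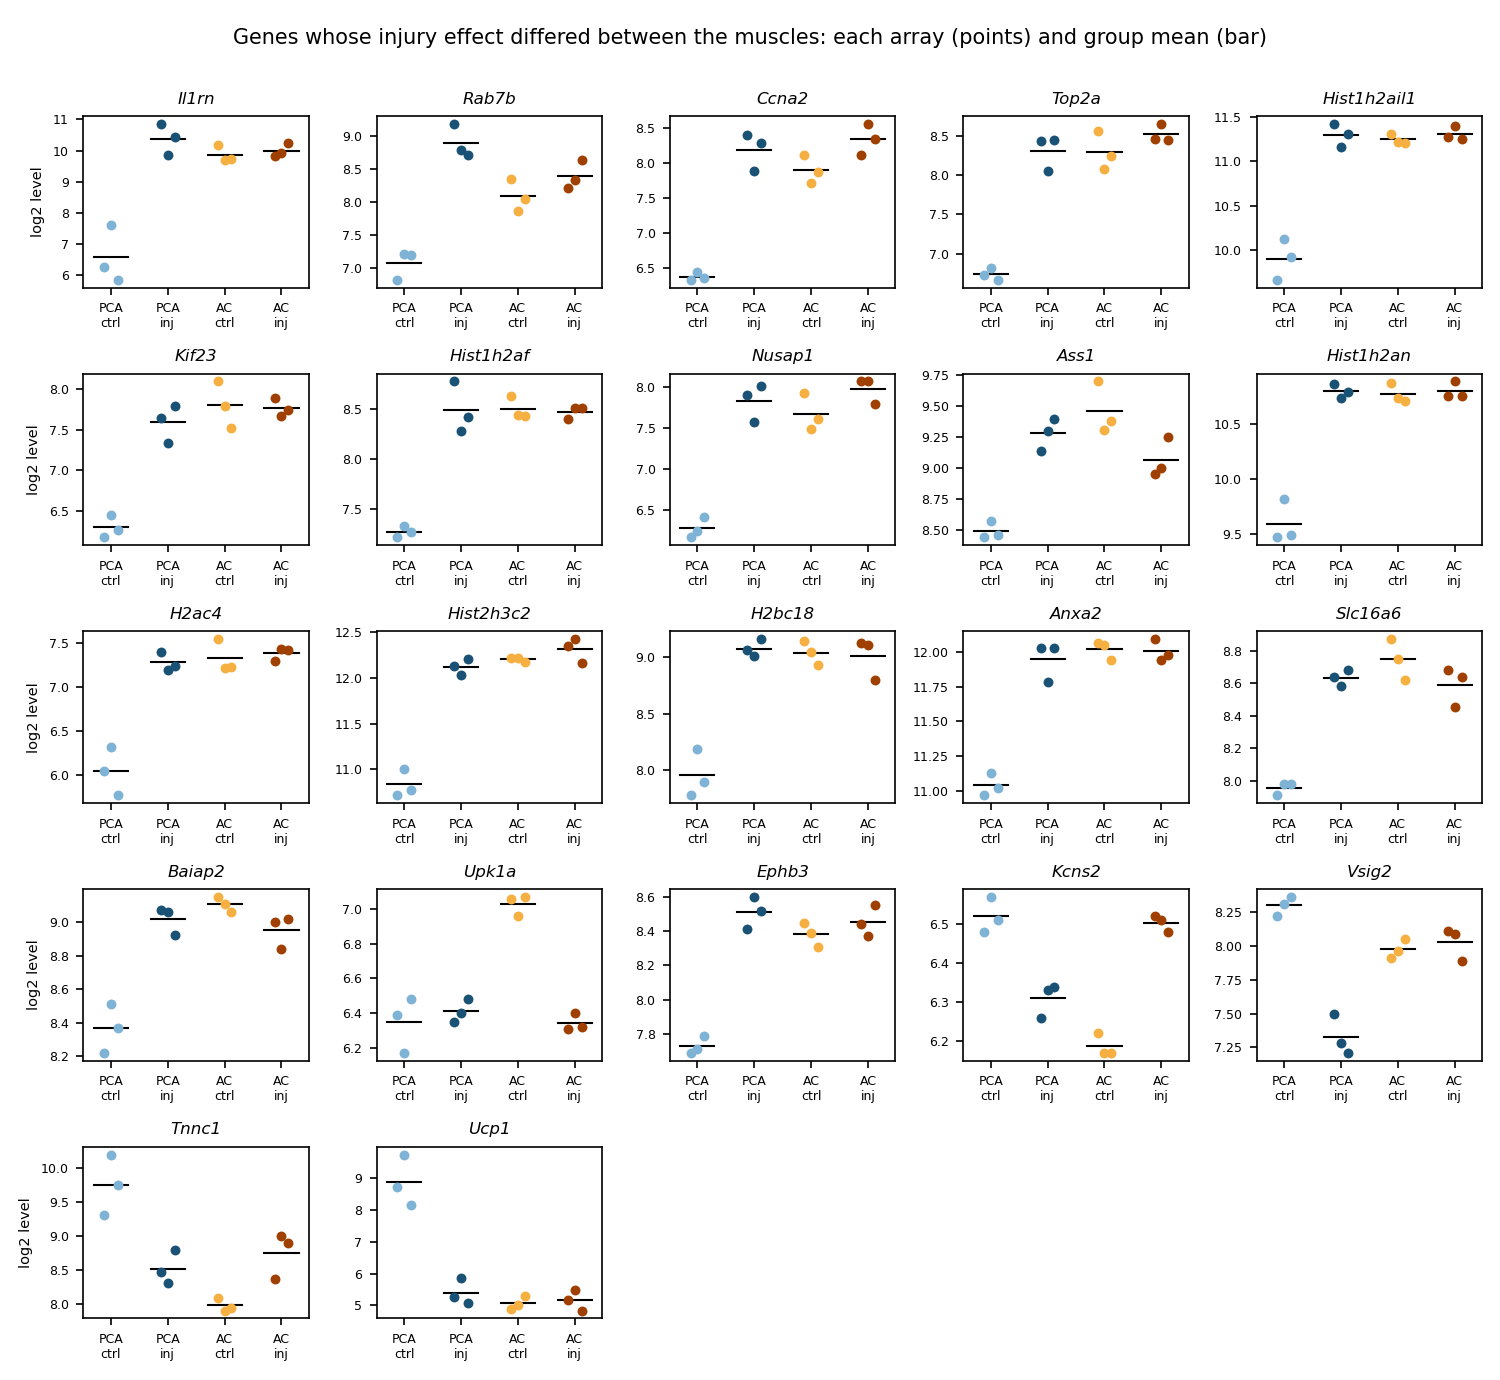
Log2 level of the 22 genes in each of the 12 arrays (points) with group means (bars), ordered from the most negative to the most positive difference, and with an axis of its own for each gene. In most panels the 3 PCA control arrays sit apart from the other 9, while AC control stands apart for Upk1a and PCA injury for Vsig2. For Kcns2 both AC control and PCA injury are low, and PCA control and AC injury are higher and overlap.

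Cell division genes made up the clearest group among the negative differences. Ccna2 encodes cyclin A2, which drives S phase and entry into mitosis. Its log2 level was 6.34, 6.45 and 6.36 in PCA control, 8.40, 7.89 and 8.28 in PCA injury, 8.12, 7.71 and 7.88 in AC control, and 8.12, 8.56 and 8.34 in AC injury. The PCA control arrays were low and the other 9 overlapped one another. The gene rose 3.5-fold in PCA (adjusted p = 0.00017), and the AC effect was 0.44 log2 units (adjusted p = 0.14), a difference of -1.37 ± 0.21 (SE, 95% interval -1.84 to -0.90, limma adjusted p = 0.042).

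Top2a encodes topoisomerase II alpha, which untangles DNA before chromosomes separate. Its level was 6.73, 6.82 and 6.67 in PCA control, 8.43, 8.05 and 8.44 in PCA injury, 8.56, 8.07 and 8.24 in AC control, and 8.46, 8.65 and 8.45 in AC injury. The PCA controls were 2.93-fold below the AC controls, and the injured muscles were 1.16-fold apart, without overlap of their arrays. The difference was -1.34 ± 0.19 (SE, adjusted p = 0.033). Kif23, a kinesin of the dividing cell's midbody, was between 6.18 and 6.46 in PCA control and between 7.34 and 8.09 in the other arrays, a difference of -1.32 ± 0.21. Nusap1, a spindle microtubule protein, was between 6.17 and 6.42 in PCA control and 7.49 and 8.07 elsewhere, a difference of -1.25 ± 0.20 (adjusted p = 0.046 for both).

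The wider list of cell division genes leaned in that direction. All 22 measured members were negative, with a median of -0.81, 3 were called and 18 had an unadjusted p under 0.05, against 8.55% of all genes in that direction. In PCA 20 of the 22 rose and in AC 0 passed the test. In the controls 19 of the 22 were higher in AC, and after injury the median gap was 0.12. The mean of the list was 6.56, 6.73 and 6.57 in PCA control and between 7.41 and 7.92 in the other 9 arrays. AC control, at 7.41 to 7.74, lay below AC injury, at 7.77 to 7.92, and overlapped PCA injury. With the squamous mean as a covariate the median was -0.49. For the lists that follow, the shares of all genes with an unadjusted p under 0.05 are 8.55% (negative) and 7.14% (positive). For a rise and a fall past the test they are 13.3% and 12.5% in PCA and 1.14% and 0.747% in AC. For a level higher and lower in AC among the controls they are 7.39% and 3.24%. By sign alone, 8421 of all 14324 genes had a positive difference and 5903 a negative one.

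The 6 histone genes past the test were Hist1h2ail1, Hist1h2af, Hist1h2an, H2ac4, Hist2h3c2 and H2bc18, which encode core histones of types H2A, H3 and H2B. Transcripts of replicative histones rise in S phase. Hist2h3c2 was at 10.72, 11.01 and 10.78 in PCA control, 12.13, 12.03 and 12.20 in PCA injury, 12.22, 12.22 and 12.17 in AC control, and 12.35, 12.42 and 12.16 in AC injury. It rose 2.43-fold in PCA and was 2.58-fold higher in AC than in PCA among the controls, a difference of -1.18 ± 0.13 (SE, adjusted p = 0.018).

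The other histone genes had the same shape. Hist1h2ail1 had a difference of -1.33 ± 0.16, Hist1h2af -1.25 ± 0.16, Hist1h2an -1.18 ± 0.14, H2ac4 -1.18 ± 0.19 and H2bc18 -1.15 ± 0.17. Injured gaps were between -0.06 and 0.19 log2 units for all 6. Over 28 measured histone genes chosen by symbol after these values were seen, 24 were negative and the median difference was -0.40. Histone genes are near-identical in sequence and probe sets may take up RNA of several of them, so single members are uncertain: other probe sets of Hist1h2ail1 and Hist1h2an gave -0.19 and -0.30, and others of Hist2h3c2 gave -1.51. With the squamous mean as a covariate H2ac4 had -0.71.

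The promoters of the genes with a negative difference can be set beside each other, although these genes did not all move alike. Upk1a had effects of 0.06 in PCA and -0.69 in AC, and Ass1 of 0.79 and -0.40. Of the 18 genes with a negative difference, 16 had an entry in the RefSeq promoter table (build GRCr8), and the 250 bases before the start were searched on both strands for 6 motifs. CCAAT, the box that NF-Y binds, was found in 11 of the 16 (68.8%) and in 35.6% of the promoters of all genes tested. TTTGAA, the core of the cell cycle homology region, was in 6 (37.5%) against 13.9%. TATAAA, the TATA box, was in 8 (50.0%) against 11.3%. The myogenic E-box CAGCTG was in 5 (31.2%) against 12.3%, the AP-1 site TGAGTCA in 2 (12.5%) against 3.4%, and the ETS-type site GAGGAA in 4 (25%) against 23.4%. In the cell division list CCAAT was in 13 of 18 promoters (72.2%), TTTGAA in 6 (33.3%), GAGGAA in 6 (33.3%), TATAAA in 1 (5.6%), and CAGCTG and TGAGTCA in 0. These are matches of letters, without a test, and overlap between motifs was allowed. The 6 histone genes were all among the 11 with CCAAT and belong to related families, so the 16 promoters are not of unrelated genes. Il1rn and Ucp1 held neither CCAAT nor TTTGAA in that window.

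The windows of 5 genes are printed below because they carry the matches in the cell division and histone genes. They are written 5′ to 3′ on the gene's strand and end at the base before the start, with capitals marking CCAAT or TTTGAA on either strand (a reversed CCAAT reads ATTGG). Top2a lies at chr10:84473094-84473343 (minus strand), Kif23 at chr8:71320585-71320834 (minus), Nusap1 at chr3:127057045-127057294 (plus), Hist2h3c2 at chr2:186525912-186526161 (plus) and H2bc18 at chr2:186526947-186527196 (plus).
Top2a: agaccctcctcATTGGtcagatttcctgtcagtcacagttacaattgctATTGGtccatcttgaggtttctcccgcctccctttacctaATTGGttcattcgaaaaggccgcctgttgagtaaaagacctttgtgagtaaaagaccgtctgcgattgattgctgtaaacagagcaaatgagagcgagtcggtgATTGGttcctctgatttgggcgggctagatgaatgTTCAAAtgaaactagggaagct
Kif23: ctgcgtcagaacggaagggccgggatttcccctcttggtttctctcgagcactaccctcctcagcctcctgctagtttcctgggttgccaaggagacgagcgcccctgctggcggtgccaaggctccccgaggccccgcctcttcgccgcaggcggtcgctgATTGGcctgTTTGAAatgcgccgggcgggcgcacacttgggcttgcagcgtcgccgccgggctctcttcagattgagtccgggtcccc
Nusap1: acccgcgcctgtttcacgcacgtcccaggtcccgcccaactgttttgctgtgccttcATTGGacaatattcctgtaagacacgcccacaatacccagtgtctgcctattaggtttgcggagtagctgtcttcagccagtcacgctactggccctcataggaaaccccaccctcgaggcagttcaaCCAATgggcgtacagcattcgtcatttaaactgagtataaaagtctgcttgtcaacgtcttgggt
Hist2h3c2: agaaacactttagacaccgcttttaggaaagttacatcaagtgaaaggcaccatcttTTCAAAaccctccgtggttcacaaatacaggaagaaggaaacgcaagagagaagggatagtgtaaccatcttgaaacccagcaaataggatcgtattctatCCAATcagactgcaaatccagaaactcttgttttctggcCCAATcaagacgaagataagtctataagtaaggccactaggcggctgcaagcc
H2bc18: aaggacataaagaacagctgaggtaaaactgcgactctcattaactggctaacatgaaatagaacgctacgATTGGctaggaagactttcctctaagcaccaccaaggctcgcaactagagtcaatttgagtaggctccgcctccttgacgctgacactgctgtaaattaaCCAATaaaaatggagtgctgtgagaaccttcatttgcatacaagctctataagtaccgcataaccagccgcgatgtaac
Top2a held 4 CCAAT matches, all reversed, and a reversed TTTGAA 22 bases before the start. Kif23 had its CCAAT and TTTGAA matches next to each other, beginning 88 and 79 bases before the start. Nusap1, Hist2h3c2 and H2bc18 held 2 CCAAT matches each, and Hist2h3c2 and H2bc18 are close neighbours on chromosome 2.

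Il1rn, the secreted antagonist that blocks the interleukin-1 receptor, had the largest negative difference among the 22. Its log2 level was 6.27, 7.62 and 5.85 in PCA control, 10.86, 9.87 and 10.42 in PCA injury, 10.19, 9.69 and 9.73 in AC control, and 9.83, 9.91 and 10.25 in AC injury. The PCA controls were low, most of all arrays 1 and 3, and the other 9 arrays overlapped. The gene rose 14-fold in PCA (adjusted p = 0.00023), had an AC effect of 0.13 (adjusted p = 0.89), and was 9.78-fold higher in AC than in PCA among the controls. The difference was -3.68 ± 0.55 (SE, 95% interval -4.88 to -2.47, adjusted p = 0.037). It was -2.11 with the squamous mean as a covariate.

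Other genes of the interleukin-1 system leaned the same way, and several are made by epithelium as well as by leukocytes. Of 14 measured members 12 were negative, 1 was called (Il1rn) and 7 had an unadjusted p under 0.05, with a median of -0.83. In PCA 12 rose and in AC 0 passed. The ligand Il36g had -2.61 ± 0.69 (SE, adjusted p = 0.094), Il36b -1.62 ± 0.33 (0.066) and Il1a -1.43 ± 0.42 (0.12), none of them past the test. The list mean was 6.49, 7.17 and 6.56 in PCA control, where array 2 was again the highest, and between 7.76 and 8.23 elsewhere. Its median fell in size to -0.35 with the squamous mean as a covariate.

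Squamous epithelium genes had the largest list median, although none passed the test. All 15 measured members were negative with an unadjusted p under 0.05, and the median was -3.62. The keratin Krt14, of the basal epithelial layer, was at 7.29, 8.68 and 7.77 in PCA control, 9.78, 10.04 and 10.33 in PCA injury, 10.84, 10.38 and 10.33 in AC control, and 10.61, 10.19 and 10.05 in AC injury. Its difference was -2.37 ± 0.43 (adjusted p = 0.061). Krt10, of the upper layers, had -3.62 ± 0.84 (0.072) and Calml3, an epithelial calmodulin-like protein, -1.57 ± 0.33 (0.066).

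The shape was that of the cell division genes. In PCA 14 of 15 rose, in the controls 14 were higher in AC, and the median gap was 3.24 in the controls and -0.02 after injury. The spread within PCA control was wide, from 6.70 to 9.72 for the list mean, and the median difference was -4.54 without PCA control 2 and -2.45 without PCA control 3. How far these markers account for the other differences was not tested. The squamous mean was lowest in the PCA control arrays, so as a covariate it also takes up what sets that group apart. Under it the median differences of the cell division, macrophage and adipocyte lists were -0.49, -0.69 and 0.88. The slow fibre, oxidative phosphorylation and fatty acid oxidation lists had medians of 0.98, 0.47 and 0.69 under it and 0.60, 0.30 and 0.42 without.

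**Figure D3:**
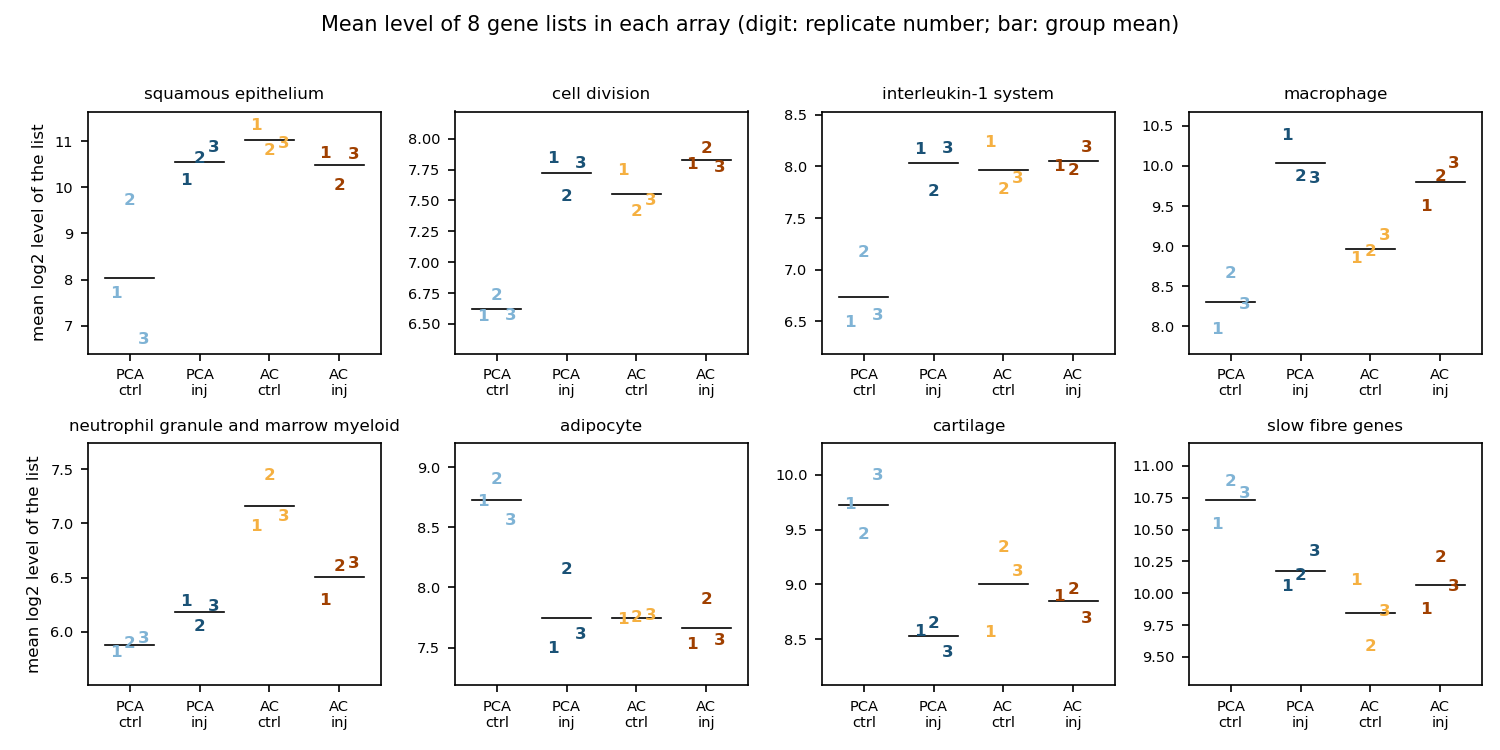
Mean log2 level of 8 gene lists in each of the 12 arrays, with the digit giving the replicate number and the bar the group mean. Squamous, cell division and interleukin-1 means are low in PCA control and near one another in the other 9 arrays, marrow genes are highest in AC control, and adipocyte, cartilage and slow fibre means are highest in PCA control.

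For macrophage genes the median injury effect was above 0 in both muscles. Of 17 measured members 0 were called, 11 were negative with an unadjusted p under 0.05, and the median was -0.89. In PCA 15 of 17 rose, with a median over the list of 1.72, and in AC 5 of 17, with a median of 0.82. Cd68, a lysosomal glycoprotein of phagocytes, was at 7.79, 8.59 and 8.13 in PCA control, 11.33, 10.80 and 10.66 in PCA injury, 9.0, 8.87 and 9.27 in AC control, and 9.81, 10.38 and 10.80 in AC injury. The gene rose in both muscles, from a lower start in PCA, and the injured arrays overlapped, with a difference of -1.48 ± 0.38 (adjusted p = 0.091).

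The control gap was the larger one for 16 of the 17 macrophage genes (70% of all genes). The median gap was 0.68 in the controls and -0.27 after injury. Gpnmb, a glycoprotein of lipid-laden macrophages, had a control gap of 1.47 and an injured gap of -0.68, and a difference of -2.15 ± 0.51 (adjusted p = 0.078). Fcer1g, the shared chain of Fc receptors, had -1.30 ± 0.28 (0.068) and Lyz2, lysozyme, -1.22 ± 0.27 (0.069). The list mean was 7.96 to 8.66 in PCA control, 8.84 to 9.13 in AC control, 9.85 to 10.38 in PCA injury and 9.49 to 10.03 in AC injury.

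Leukocyte surface receptors bind ligands on other cells and on debris. Of 20 measured members 19 were negative, 5 with an unadjusted p under 0.05 and 0 called, and the median was -0.70, or -0.47 without PCA injury 1 or AC injury 1. In PCA 19 of 20 rose and in AC 5. Trem2, a lipid receptor of phagocytes, rose by 2.46 in PCA and had an AC effect of 1.12 (adjusted p = 0.064). Lilrb4 rose in both muscles, by 3.71 in PCA and 2.50 in AC, and its difference of -1.20 ± 0.62 did not pass (0.38).

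Further immune and degradative lists had smaller negative medians. All 11 MHC class II genes were negative, with a median of -0.38, and RT1-DMa, which loads peptide onto class II, had -0.79 ± 0.18 (adjusted p = 0.072). All 19 lysosome and cathepsin genes were negative, with a median of -0.20, and the protease Ctsd had -0.58 ± 0.13 (0.068). In each of these 2 lists 0 genes passed. For complement the median was -0.30, with 11 of 13 negative, and for chemokines and cytokines -0.03, with 16 of 29 negative. Ccl2, which recruits monocytes, rose by 2.62 in PCA and had an AC effect of 1.25 (adjusted p = 0.054), a difference of -1.38 ± 0.41 (0.13).

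In a list of matrix metalloproteinases, the enzymes that cut extracellular matrix, and their inhibitors 16 of 17 members were negative, with a median of -0.34 and 0 called. The positive member was the inhibitor Timp4, with 0.74 ± 0.17 (adjusted p = 0.072). Mmp9, a gelatinase of macrophages and neutrophils, was at 5.20, 5.35 and 5.55 in PCA control, 10.13, 8.97 and 8.86 in PCA injury, 7.97, 8.40 and 8.12 in AC control, and 7.81, 9.32 and 9.48 in AC injury. PCA control was low and did not overlap any other group. The difference was -3.25 ± 0.59 (adjusted p = 0.061), with a PCA rise of 3.95 and an AC effect of 0.71. Tgfb1, the fibrosis-related growth factor, rose in both, by 1.48 in PCA and 0.71 in AC (difference -0.78 ± 0.17, adjusted p = 0.068). The collagen list had a median of -0.17 and the fibroblast list -0.17, with medians of 0.80 and 0.53 in PCA and 0.67 and 0.46 in AC.

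In a further list the AC control arrays were the highest. The 17 neutrophil granule and marrow genes had a median of -0.76, with 10 negative at an unadjusted p under 0.05 and 0 called. The median was -0.15 over members above the median level of all genes, -1.51 over those above the lower quartile, and -1.05 with the squamous mean as a covariate. In AC 5 fell, in PCA 2 rose, and 11 were higher in AC among the controls. Ngp, a neutrophil granule protein, was at 4.68, 5.14 and 4.74 in PCA control, 4.64, 4.73 and 5.03 in PCA injury, 8.78, 9.89 and 9.02 in AC control, and 5.53, 5.04 and 7.55 in AC injury. It was high in the AC controls, low in all PCA arrays, and fell by 3.19 in AC, a difference of -3.14 ± 0.73 (adjusted p = 0.073). Camp, the antimicrobial peptide cathelicidin, was between 6.78 and 6.83 in AC control and between 5.51 and 6.06 elsewhere (difference -0.83 ± 0.14, adjusted p = 0.054).

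Red cell genes had that shape as well. Ahsp, which stabilises alpha globin in maturing red cells, was at 7.79, 8.89 and 8.09 in AC control and between 4.87 and 6.35 in the other arrays. It fell by 2.64 in AC and had a PCA effect of -0.18, a difference of -2.46 ± 0.48 (adjusted p = 0.066). Slc4a1, the red cell anion exchanger, had -1.21 ± 0.34 (0.11). Over 11 measured members 4 fell in AC and 1 in PCA, and 0 were called. Their median of -0.43 was -0.72 without PCA injury 1, -0.26 without the 3 thyroid-rich arrays and -0.26 with the squamous mean as a covariate. Mature neutrophil receptor Cxcr2 did not follow: it rose by 1.85 in PCA, had an AC effect of 0.23, and was higher in AC than in PCA by 1.77 among the controls.

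Among the positive differences Ucp1, which makes heat in brown fat mitochondria, was the largest. Its log2 level was 8.71, 9.73 and 8.15 in PCA control, 5.25, 5.87 and 5.09 in PCA injury, 4.90, 5.02 and 5.31 in AC control, and 5.16, 5.49 and 4.84 in AC injury. PCA control was high and the other 9 arrays overlapped. The gene fell 11-fold in PCA (adjusted p = 0.00021), had an AC effect of 0.09 (adjusted p = 0.92), and was 13.8-fold higher in PCA than in AC among the controls. The difference was 3.55 ± 0.49 (SE, 95% interval 2.48 to 4.61, adjusted p = 0.029).

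Adipocyte genes accompanied Ucp1. Of 18 measured members 17 were positive, 11 with an unadjusted p under 0.05 against 7.14% of all genes, and Ucp1 alone was called. The median was 0.63. In PCA 13 fell, in AC 0 passed, and 11 were lower in AC among the controls. The list mean was 8.71, 8.90 and 8.56 in PCA control and between 7.49 and 8.15 elsewhere. Adipoq, the fat-cell hormone adiponectin, had 1.35 ± 0.43 (adjusted p = 0.16), Cidec, of the lipid droplet, 1.42 ± 0.36 (0.087), and Plin1, the lipid droplet coat protein, 1.41 ± 0.36 (0.093).

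Cartilage genes had their highest group mean in PCA control. Of 16 cartilage genes 15 were positive, 13 of them with an unadjusted p under 0.05 (7.14% of all genes). Of these genes 0 were called, and the list median was 1.14. In PCA 14 fell and in AC 0 passed. Acan, the large cartilage proteoglycan, was at 11.86, 11.20 and 12.14 in PCA control, 10.04, 10.02 and 9.43 in PCA injury, 9.34, 10.72 and 10.27 in AC control, and 10.11, 10.31 and 9.59 in AC injury. Its difference was 1.80 ± 0.49 (adjusted p = 0.10). With the squamous mean as a covariate the list median was 0.39. Of 7 tendon genes 6 were positive, with a median of 1.07. Fmod, a collagen-binding proteoglycan, had 1.10 ± 0.19 (0.054) and Prg4, the joint lubricant lubricin, 1.39 ± 0.31 (0.069).

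Of the fibre genes, 1 slow fibre gene passed the test. Tnnc1, the calcium-binding troponin subunit of slow and cardiac muscle, was at 9.30, 10.19 and 9.75 in PCA control, 8.46, 8.30 and 8.79 in PCA injury, 8.09, 7.90 and 7.94 in AC control, and 8.37, 8.99 and 8.89 in AC injury. PCA control was highest and AC control lowest, and the injured muscles overlapped between them. The gene fell by 1.23 in PCA (adjusted p = 0.0026) and had an AC effect of 0.77 (adjusted p = 0.09). The difference was 2.00 ± 0.31 (SE, 95% interval 1.32 to 2.69, adjusted p = 0.042), and the control gap was 3.41-fold.

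Of 13 slow fibre genes 12 were positive, 8 with an unadjusted p under 0.05 (7.14% of all genes). The median was 0.60, and Tnnc1 was the one called. In PCA 7 fell and 1 rose, in AC 2 rose, and 8 were lower in AC among the controls, where the median gap was -0.74 against -0.03 after injury. Tnnt1, slow troponin T, had 1.14 ± 0.27 (adjusted p = 0.076), Tnni1, slow troponin I, 1.13 ± 0.28 (0.086), and Atp2a2, the slow calcium pump, 0.59 ± 0.11 (0.066). Tnni1 had a PCA effect of 0.11 and rose by 1.24 in AC. The 11 fast fibre genes were all positive but smaller, with a median of 0.22, 0 called and 0 with an unadjusted p under 0.05.

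Among the myosin heavy chains, the motors that set the fibre type, the slow and the fast oxidative isoform had the largest estimates, and 0 of 8 were called. Myh7, the slow isoform, was at 10.58, 11.38 and 10.82 in PCA control, 8.09, 7.91 and 8.98 in PCA injury, 9.65, 9.35 and 9.41 in AC control, and 8.34, 9.14 and 7.78 in AC injury. It fell by 2.60 in PCA and had an AC effect of -1.05 (adjusted p = 0.13), a difference of 1.55 ± 0.49 (0.15). Myh2, the fast oxidative isoform, fell by 1.86 in PCA and had an AC effect of -0.42, a difference of 1.44 ± 0.33 (0.072). For both, PCA control was high and the injured muscles were within 0.09 and 0.05 log2 units of each other.

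The other myosins had smaller differences. The estimates were 0.68 ± 0.44 for embryonic Myh3, 0.41 ± 0.14 for Myh7b, 0.35 ± 0.23 for Myh1, 0.31 ± 0.14 for cardiac Myh6, 0.22 ± 0.41 for Myh4 and -0.15 ± 0.98 for Myh13. Myh13, the superfast isoform of eye and laryngeal muscle, ranged from 6.55 to 10.32 in PCA injury, and its 95% interval of -2.30 to 1.99 leaves a large difference in either direction possible. Its sign turned without PCA control 2 (0.08), AC control 2 (0.02) or PCA injury 3 (0.86) and with array weights (0.25), and that of Myh4 without PCA injury 1 (-0.17).

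Ankrd1, a stretch-responsive ankyrin repeat protein, was close to the threshold. It was at 10.58, 10.87 and 11.17 in PCA control, 9.90, 10.19 and 10.52 in PCA injury, 9.86, 9.74 and 9.76 in AC control, and 10.47, 10.42 and 10.72 in AC injury. The level fell by 0.67 in PCA, and the AC effect of 0.75 had an adjusted p of 0.0503. The difference was 1.42 ± 0.24 (adjusted p = 0.054). All 8 embryonic and cardiac isoforms in its list were positive, with a median of 0.58, which was 0.38 without PCA control 3 and 0.34 without AC control 2. The positive genes next in p were Agmo, Zbtb16, Ctxn3, Fmod (given above) and Akr1c15. Zbtb16 had a control gap of -0.41 and a larger injured gap of 1.00, a difference of 1.41 ± 0.24 (0.054). Ctxn3 rose by 1.15 in AC and had a PCA effect of -0.17, a difference of 1.32 ± 0.23 (0.054). Agmo (1.20 ± 0.21, 0.054) and Akr1c15 (0.81 ± 0.15, 0.066) had the larger gap in the controls.

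Of the 5 acetylcholine receptor subunits, the best known denervation genes, 3 rose in both muscles and 0 passed the test of the difference. Chrna1, the ligand-binding alpha subunit, was at 8.96, 9.40 and 10.80 in PCA control, 11.41, 11.54 and 12.09 in PCA injury, 9.14, 8.99 and 9.19 in AC control, and 12.16, 11.96 and 11.73 in AC injury. It rose by 1.96 in PCA and 2.84 in AC. The difference was 0.88 ± 0.52 (95% interval -0.26 to 2.03, adjusted p = 0.45), so a difference of up to 2.03 remains possible. PCA control 3 was the highest control array for this gene.

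Chrnd, the delta subunit, rose by 1.47 in PCA and 2.31 in AC, a difference of 0.85 ± 0.43 (95% interval -0.10 to 1.80). Chrng, the fetal gamma subunit, rose by 1.41 and 2.06, a difference of 0.65 ± 0.41 (-0.25 to 1.55). The adult epsilon subunit Chrne had 0.41 ± 0.15 (0.08 to 0.74, adjusted p = 0.22) and the beta subunit Chrnb1 0.21 ± 0.30 (-0.44 to 0.86), the sign of which turned without PCA injury 1 (-0.0017). All 5 estimates were positive, with a median of 0.65 that was 0.34 without PCA control 3.

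Of 9 measured regulators of the denervation response 6 rose in PCA and 5 in AC, of 10 organisers of the neuromuscular junction 3 and 2, and 0 of either list passed the test of the difference. Mef2d, a transcription factor that did not pass in either muscle, had effects of -0.32 in PCA and -0.05 in AC. Genes that rose in both had wide intervals of the difference. Musk, the kinase that organises the synapse, rose by 1.02 in PCA and 1.21 in AC, a difference of 0.19 ± 0.30 (95% interval -0.46 to 0.85). Myog, the transcription factor myogenin, rose by 1.26 and 1.97, a difference of 0.71 ± 0.41 (-0.20 to 1.62). Mymk, the fusion protein myomaker, rose by 2.73 and 3.56, a difference of 0.83 ± 0.44 (-0.13 to 1.79). Gadd45a, a stress gene of denervated muscle, rose by 0.78 and 1.27, a difference of 0.49 ± 0.25 (-0.05 to 1.03).

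**Figure D4:**
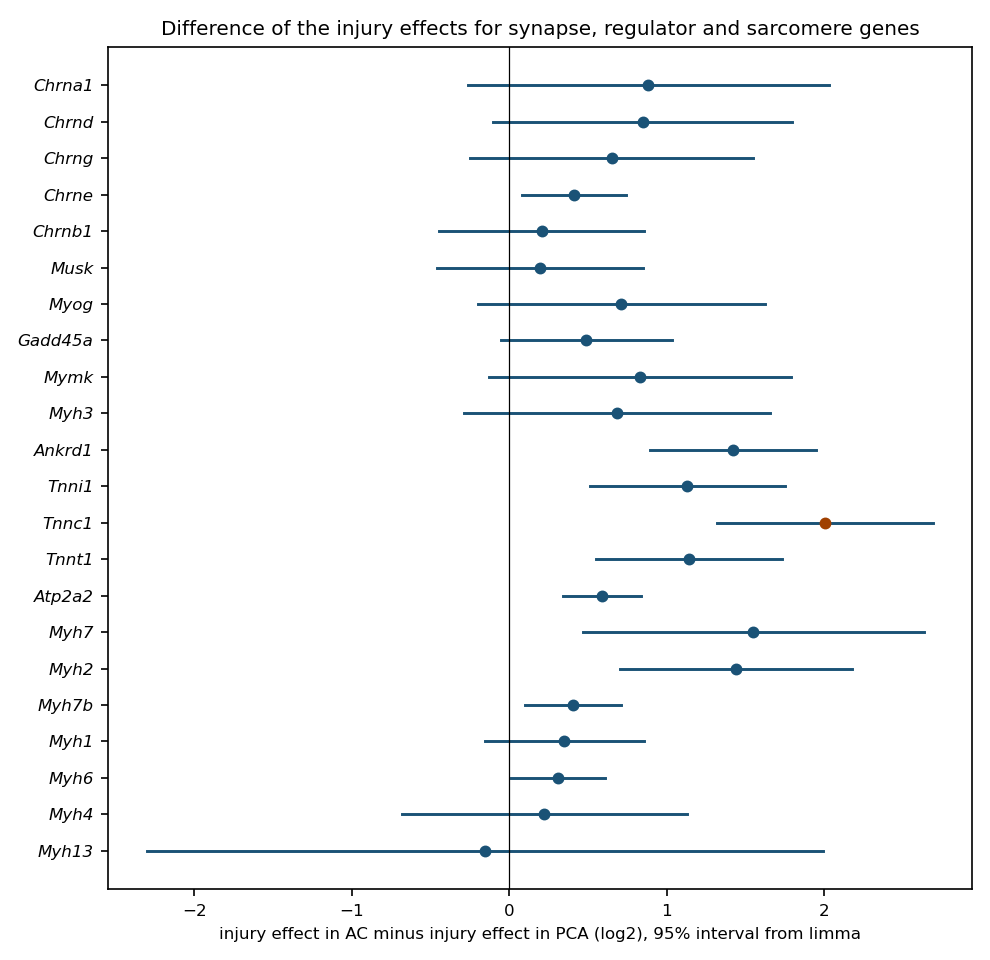
Difference of the injury effects (AC minus PCA, log2) with its 95% limma interval for 22 synapse, regulator and sarcomere genes, with Tnnc1 in a second colour because it passed the test. Intervals of Chrna1, Chrnd, Chrng, Musk, Myog and Mymk cross 0, and that of Myh13 spans -2.30 to 1.99.

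Metabolic genes fell in PCA and were positive in the contrast as a body, with 0 called. Of 45 oxidative phosphorylation genes 44 were positive, 13 with an unadjusted p under 0.05, and the median was 0.30, against 0.05 over all genes. That median was 0.18 without PCA injury 1 and 0.48 without PCA injury 3. In PCA 42 fell (12.5% of all genes) and in AC 1 (0.747%), with median effects of -0.68 and -0.36. The list mean was 10.76 to 10.91 in AC control and 10.35 to 10.58 in AC injury, so levels were lower after injury in AC too. Ndufa6, of complex I, was at 10.03, 10.14 and 10.02 in PCA control, 8.89, 8.93 and 9.27 in PCA injury, 9.51, 9.21 and 9.25 in AC control, and 9.32, 8.96 and 9.08 in AC injury. PCA control was the high group, and the difference was 0.83 ± 0.18 (adjusted p = 0.068).

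Fuel-handling genes had medians of similar size. For the tricarboxylic acid cycle all 17 members were positive, with a median of 0.32. For fatty acid oxidation 26 of 27 were positive, with a median of 0.42 (0.26 without PCA injury 1), and 23 fell in PCA against 0 in AC. The median effects of that list were -0.76 in PCA and -0.37 in AC. Pdk4, the kinase that spares glucose by blocking pyruvate dehydrogenase, fell by 1.16 in PCA and had an AC effect of -0.37, a difference of 0.79 ± 0.19 (adjusted p = 0.086). For glycolysis 20 of 22 were positive, with a median of 0.24. The median gap between the muscles in the oxidative phosphorylation list was -0.17 in the controls and 0.15 after injury, 2 gaps of similar size and opposite sign.

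**Figure D5:**
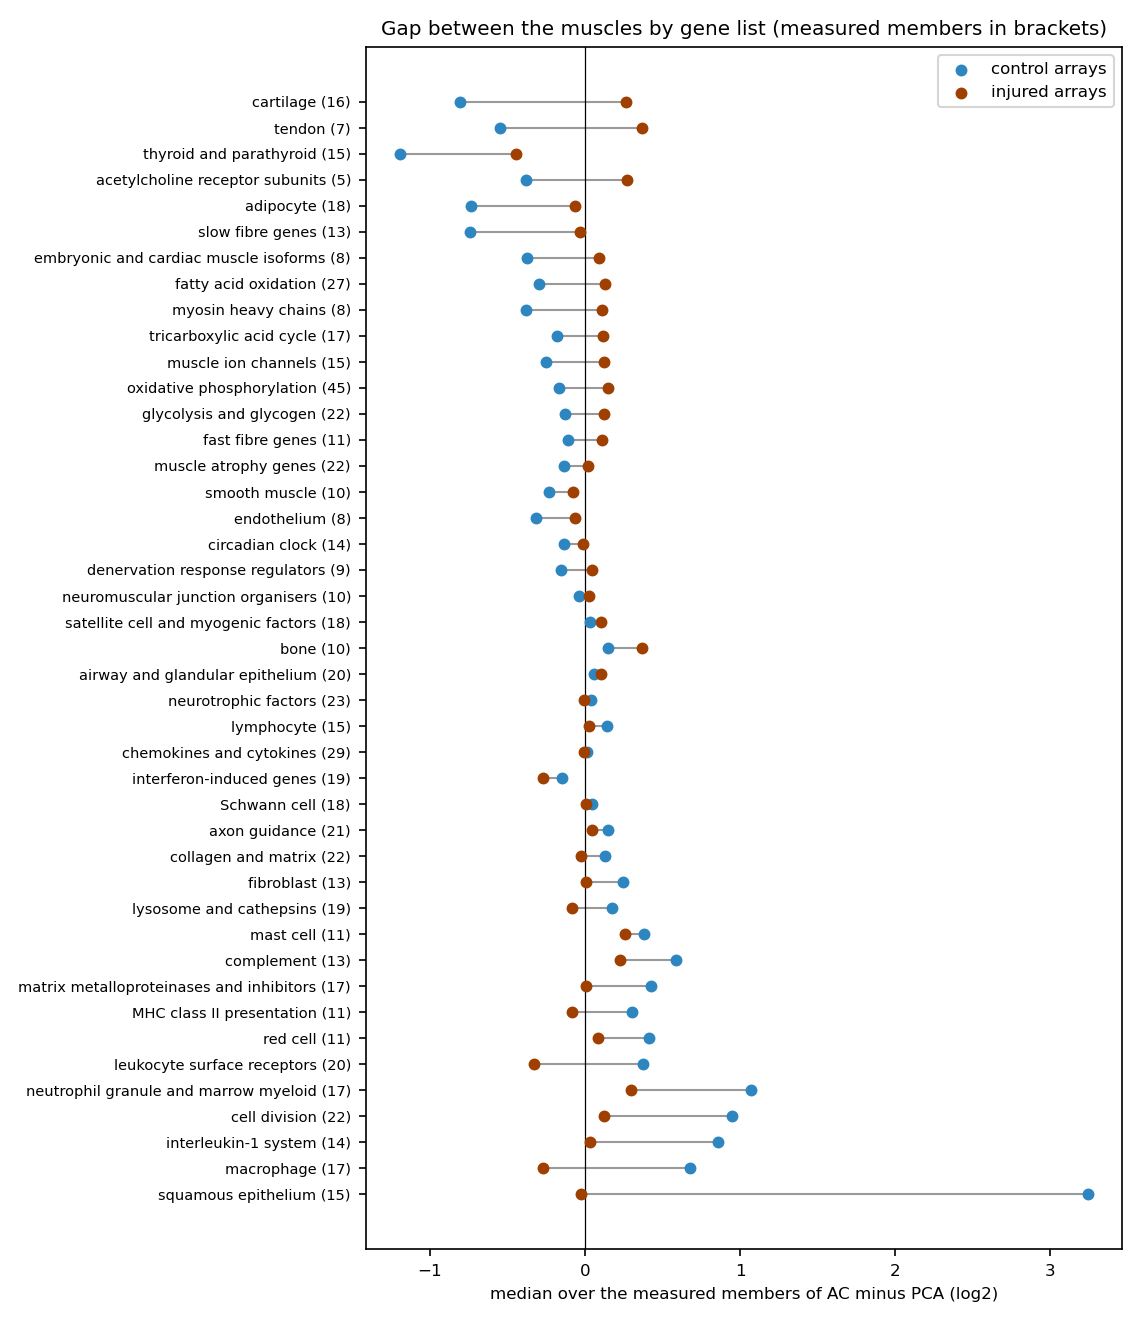
Median AC minus PCA gap (log2) over the measured members of 43 gene lists, in the control arrays and in the injured arrays, ordered by the median difference. The squamous list spans 3.24 to -0.02, the cell division list 0.95 to 0.12 and the adipocyte list -0.74 to -0.06, while the oxidative phosphorylation list lies at -0.17 and 0.15.

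The remaining genes past the test were of mixed function. Rab7b, a small GTPase of late endosomes, was at 6.83, 7.22 and 7.21 in PCA control, 9.18, 8.79 and 8.71 in PCA injury, 8.35, 7.87 and 8.05 in AC control, and 8.21, 8.33 and 8.64 in AC injury. AC was above PCA in the controls by 1.00 and below it after injury by 0.50, so its difference of -1.50 ± 0.24 (adjusted p = 0.046) drew on both. Ass1, which makes argininosuccinate in arginine synthesis, rose by 0.79 in PCA and had an AC effect of -0.40 (adjusted p = 0.098), a difference of -1.19 ± 0.17.

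Anxa2, a calcium-dependent membrane-binding protein, was between 10.97 and 11.13 in PCA control and between 11.78 and 12.09 in the other arrays, a difference of -0.92 ± 0.12 (adjusted p = 0.027). Slc16a6, of the monocarboxylate transporter family, had -0.83 ± 0.12, Baiap2, an adaptor protein of the actin cytoskeleton, -0.80 ± 0.12, and Ephb3, a receptor for ephrin-B ligands, -0.71 ± 0.11. Each was low in PCA control. Control gaps of these 4 genes were 0.98, 0.79, 0.74 and 0.65, and the injured gaps were between -0.06 and 0.06.

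Upk1a, a uroplakin membrane protein of the urothelium, was the gene with the larger effect in AC. It was at 6.39, 6.17 and 6.48 in PCA control, 6.35, 6.4 and 6.48 in PCA injury, 7.06, 6.96 and 7.07 in AC control, and 6.31, 6.4 and 6.32 in AC injury. The level fell by 0.69 in AC (adjusted p = 0.0075) and had a PCA effect of 0.06, a difference of -0.75 ± 0.12 (adjusted p = 0.046). Kcns2, a modulatory potassium channel subunit, moved in opposite directions. It fell by 0.21 in PCA (adjusted p = 0.025) and rose by 0.32 in AC (adjusted p = 0.032), a difference of 0.53 ± 0.09.

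Vsig2 was the one gene of the 22 whose gap was larger after injury. It was at 8.22, 8.31 and 8.36 in PCA control, 7.50, 7.28 and 7.21 in PCA injury, 7.91, 7.96 and 8.05 in AC control, and 8.11, 8.09 and 7.89 in AC injury. PCA injury was low and did not overlap the other arrays. The level fell by 0.97 in PCA and had an AC effect of 0.06, a difference of 1.02 ± 0.13 (SE, 95% interval 0.73 to 1.31, adjusted p = 0.026). AC was below PCA by 0.32 in the controls and above it by 0.70 after injury, and that injured gap had an adjusted p of 0.16.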

How the data were processed

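RNA of 12 specimens was hybridised, biotin-labelled, to whole-transcript rat gene arrays. The authors deposited 1 table of values made with RMA and Partek, per the submitters' processing notes, which give no versions. Its log base is not stated in the sources used here, and the deposited values, between 2.57 and 14.04, were taken as log2. Of 27342 probe sets, 15097 carry 1 gene symbol, 323 several and 11922 none. Those with 1 were kept, using the probe set of highest mean over all arrays for each of 499 genes with several, which left 14324 genes. The gene IDs of 15067 probe sets matched the RefSeq table and 30 did not. No value column was left out.

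A mean per group was fitted to the 12 arrays with limma 3.58.1 in R 4.3.3 (residual degrees of freedom 8), without a replicate block. The p-values were adjusted by Benjamini-Hochberg over all genes, for each comparison separately. The procedure was tested on simulated data. A gene was placed in the controls or the injured arrays only where the mean gap passed as well. Of 810 genes in 43 lists, 695 were measured. Named genes were those past the test in the contrast and, as few positive genes passed, those of smallest p in that direction. Per list, the first measured member and the 3 with the smallest p could be named, with all receptor subunits and myosins. The members, lists and tests were chosen with earlier results of these data known. RMA summarises and compresses levels, so folds may be understated. Alternatives were other normalisations, filters, variance models, replicate blocks, thresholds, covariates and left-out arrays.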

Additional observations from a re-analysis of the deposited data

Results flagged for a closer look

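The injury effects in AC and PCA differed by the test of the difference itself for 22 genes, and each is given here with its difference in log2 units. The negative values were -3.68 for Il1rn, -1.50 for Rab7b, -1.37 for Ccna2, -1.34 for Top2a, -1.33 for Hist1h2ail1, -1.32 for Kif23, -1.25 for Hist1h2af, -1.25 for Nusap1, -1.19 for Ass1, -1.18 for Hist1h2an, -1.18 for H2ac4, -1.18 for Hist2h3c2, -1.15 for H2bc18, -0.92 for Anxa2, -0.83 for Slc16a6, -0.80 for Baiap2, -0.75 for Upk1a and -0.71 for Ephb3. The positive values were 0.53 for Kcns2, 1.02 for Vsig2, 2.00 for Tnnc1 and 3.55 for Ucp1. With 3 arrays per group, no search gene by gene for a single outlying array was made, while fits without each array in turn are given above and below.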

How the results depend on the processing

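The count of genes past the test was not stable. Those genes kept their direction, but they were chosen on these same arrays, so that is no independent support. Against 22 genes called, 35 were called after a further quantile normalisation and with a trended robust prior, 143 among genes above the median level, 347 with array weights, 474 at an adjusted p of 0.1, 0 at 0.01, and 84 over all probe sets, an alternative chosen after seeing the data. Without the 3 arrays with high thyroid transcripts it was 0 (lowest adjusted p 0.0752) and with the squamous covariate 0. Leaving out each array in turn gave 0 to 406. In these settings other than that over all probe sets, each tested gene of the 22 kept its sign, with an unadjusted p under 0.05. The cause of the moves was not tested.

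Genes placed in the controls numbered 19, and 98, 237, 322, 0 and 70 above the median level, with array weights, at 0.1, at 0.01 and over all probe sets, 0 without the thyroid arrays or with the covariate, and 0 to 310 over left-out arrays. A larger PCA effect was found for 18, and then for 118, 264, 308, 0, 70, 0, 0, and 0 to 309. A larger AC effect was found for 1, and for 3 after quantile normalisation or with the robust prior, 0 after median centring, 10 with array weights, 15 at 0.1, 0 at 0.01, 4 over all probe sets, 0 without the thyroid arrays, 0 with the covariate, and 0 to 5 over left-out arrays. Genes differing between the control muscles numbered 1523, and 2629 with array weights, 560 at 0.01, 2394 at 0.1, 2436 over all probe sets, 812 without the thyroid arrays, 2 with the covariate, and 714 to 1814 over left-out arrays. In each of these settings 0 genes were placed in the injured arrays and 0 differed between the injured muscles.

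Same-numbered PCA and AC arrays of 1 surgery had correlations of their deviations between -0.39 and 0.34. Differently numbered PCA and AC arrays of 1 surgery had correlations between -0.62 and 0.49. Each deviation was taken from the mean of its own small group, which ties the deviations of that group together. These correlations therefore cannot tell whether arrays of the same number came from the same animals. With the number as a replicate block across all groups the counts were 0 called, 0 in the controls, 0 with the larger PCA effect and 0 with the larger AC effect. With a random replicate block within surgery they were 12, 11, 11 and 0. The sign turned for Myh13 (0.2518 with array weights, and -1.0283 to 0.8567 over left-out arrays), Chrnb1 (-0.0017 to 0.4883) and Myh4 (-0.1733 to 0.6267). The squamous median was 0.0385 with its own mean as the covariate, which takes up the differences of that list by construction. The signal over background of the probe sets was not used here, so levels near the bottom of the range carry no detection call.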

Other observations

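Among lists not described above, axon guidance genes had 5 of 21 members negative at an unadjusted p under 0.05 (8.55% of all genes). Their median difference was -0.14, with 0 called. Slit3, a secreted repellent of growing axons, rose by 0.72 in PCA and had an AC effect of -0.12, a difference of -0.83 ± 0.20 (limma adjusted p = 0.082). Ephb2 and its ligand Efnb1 had -0.75 ± 0.20 (0.10) and -0.68 ± 0.18 (0.10), beside the -0.71 of Ephb3, and each of the 3 was low in PCA control. Nrg1, the neuregulin that acts on Schwann cells and the synapse, rose by 0.74 in PCA and had an AC effect of -0.01, a difference of -0.75 ± 0.25 (0.17).

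Clock genes fell in PCA for 7 of 14 members (12.5% of all genes) and in AC for 0 (0.747% of all genes). The median difference was 0.19 and 0 were called. Nr1d1, a repressor of the circadian loop, fell by 0.89 in PCA and had an AC effect of -0.28. The control gap was -0.0067 and the injured gap 0.61, a difference of 0.62 ± 0.26 (0.28). The time of day of tissue collection is not in the labels.

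Airway gene Sec14l3 fell by 1.80 in AC to 5.92, 5.57 and 6.55, below the 7.0 to 8.38 of the other 9 arrays. Its difference was -1.49 ± 0.48 (0.16). The airway and glandular list as a whole did not share this: 11 of 20 members were positive and 9 negative, with a median of 0.01 and 0 called. Bone gene Bglap, osteocalcin, was higher in AC than in PCA among the controls by 2.13, and the injured gap was 0.92. Of 10 bone genes 5 were positive and 5 negative, with a median of 0.05, and 2 were higher in AC among the controls. Interferon-induced genes had 0 of 19 members called and a median of -0.09. Of the 84 probe sets called when all were tested, 40 had no symbol or several and are not named here.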
